A study of Mus musculus with 45 samples.

Results

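The genes described here are 35 genes of the cellular response to low oxygen and of glycolysis, followed in cultured mouse forelimb buds. They were taken by symbol and comprise the oxygen-regulated transcription factors and their sensors, well-known targets of those factors, glucose and lactate transporters, and the enzymes from glucose to lactate. All 35 symbols were found. They matched 36 gene rows of 34994 in the joined tables, because Aldoa stands for 2 gene identifiers. All 36 rows passed the filter on low counts in every comparison.

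Forelimb buds of gestation day 13 CD1 mouse embryos were cultured in bottles with DMSO, the vehicle and here the control, or with 10 or 50 µM bisphenol S (BPS), a common substitute for bisphenol A. RNA was sequenced after 3, 24 or 48 h, with 5 libraries in each of the 9 groups and 45 in all. No group was free of culture, and all received the same gas, with 50% oxygen and 5% CO2, per the labels' protocols. Forelimbs were pooled, limbs of both sexes shared a culture, and the medium held ascorbic acid, a cofactor of the prolyl hydroxylases. The strain label reads CD1 for 40 libraries and CD2 to CD6 for the 5 libraries of 50 µM at 48 h, which were analysed as CD1. The labels do not say which libraries of a group came from separate bottles or litters. A p-value here therefore sets a difference against the spread of libraries, part of which may be technical.

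Cells sense oxygen through prolyl hydroxylases of the EGLN family, which use oxygen to mark the alpha subunits of the hypoxia-inducible factors (HIF) for destruction. When oxygen is short the alpha subunits last longer, pair with ARNT and bind the short DNA word RCGTG beside their target genes. The targets raise glucose uptake, glycolysis and lactate export, hold pyruvate back from the mitochondria, promote vessel growth and modify collagen. Growth plate cartilage has few vessels, and HIF-1 is known to be needed there for chondrocyte survival and for collagen hydroxylation. Regulation of the alpha subunits acts largely on the protein, so their RNA level does not report their activity.

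Depth ran from 15.2 to 23.1 M reads assigned to genes, with 18.2 M as the median. The 36 rows took 0.376 to 0.732% of these reads. A count of 3 reads, used as the floor of detection, corresponds to 0.13 to 0.197 CPM, the reads of a gene scaled by the size of its library, and it covers counting error only. Cartilage markers (14 genes) summed to between 5165 and 5910 CPM in the control libraries of 3 h, and every 2 replicates of a group differed by more than counting noise. Fold changes are log2 values with their standard error (SE), from edgeR's quasi-likelihood test. A gene was called when its Benjamini-Hochberg adjusted p, computed over every gene in the test, was below 0.05.

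At 3 h the control limb buds expressed all of these genes, and the glycolytic enzymes stood highest when levels were divided by gene length. Per kilobase of the deposited gene length, Gapdh, the glyceraldehyde-3-phosphate dehydrogenase, had 242.1 CPM and Pkm, the pyruvate kinase, 157 CPM. Pgk1, Aldoa and Tpi1 followed with 122, 115 and 111 CPM per kilobase. Ddit4, an inhibitor of mTORC1 signalling, had 102 CPM per kilobase and Ldha, which makes lactate from pyruvate, 95.5. At the other end stood Adm, the vasodilator peptide adrenomedullin, with 0.632 CPM per kilobase, Aldoc with 1.06, Car9 (carbonic anhydrase 9) with 1.27 and Pfkp with 1.71. Among the isoenzymes, Hk1 (10.8) stood above Hk2 (5.67), Pfkm (29.7) above Pfkl (18.4), and the glucose transporter Slc2a1 (27.0) above Slc2a3 (10.8), all in CPM per kilobase. Hif1a (23.2 CPM per kilobase) stood above Epas1 (5.36), which encodes HIF-2 alpha. Orders between genes depend on the deposited gene length, which was 6675 bases for Pfkl, 3340 for Pfkm and 13401 for Pfkp. Over all 45 libraries Pfkl held 96711 reads and Pfkm 93248, the reverse of their order per kilobase.

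Some rows carry a limit from neighbouring or near-identical genes, since the labels do not state that the counting used strand. Ankrd37 averaged 2.78 CPM and lies opposite Ufsp2 at 35.02 CPM. Pfkp (21.6 CPM) overlaps Pitrm1 (101.3 CPM) and Pfkm (111 CPM) overlaps Senp1 (80.4 CPM), each on the opposite strand. Gapdh has processed pseudogenes and Eno1 has the near-identical copy Eno1b, so their reads can be split. Gapdh also overlaps Iffo1 (90.0 CPM) on the opposite strand, and Pkm (657 CPM) overlaps AC160637.1 (22.4 CPM) on its own strand. The second Aldoa identifier, ENSMUSG00000114515, covers chr7:126800790-126809108 on the minus strand, upstream of the main gene at chr7:126795234-126800751. It held 1.51 to 4.87 CPM, against 265 to 712 for the main row, which is meant wherever Aldoa is named alone.

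Promoters of these genes were searched for the HIF word RCGTG. RefSeq's promoter table (GRCm38.p6) held an entry for 31 of the 35 genes, with none matched for Epas1, Bnip3l, Ndrg1 and Slc2a3. The 250 bases before each start were searched for ACGTG and GCGTG, the forms of the HIF word, on both strands, and overlapping matches were merged into 1 place. Of 45 promoters of these genes 37 (82.2%) held at least 1 match, against 38.6% of the 32851 promoters in the table. At least 3 places were found in 7 of the 45, against 4.65% of all. The genes include well-known HIF targets by choice, so these shares are no separate evidence of HIF acting here. These promoters also had more CG dinucleotides, which both words contain, with a median of 14 against 6, and more GC, 61.6% against 52.4%, and were not compared with promoters of like composition. The 4 sequences below are shown because they hold the most places among genes whose levels the results turn on. Each runs over the 250 bases before the start, 5′ to 3′ on the gene's own strand, with the matches in capitals. Bnip3, at chr7:138909507-138909756 on the minus strand, had 4 places. The others have 3 each: Ldha at chr7:46845554-46845803 (plus strand), Ankrd37 at chr8:45999851-46000100 (minus strand) and P4ha1 at chr10:59323046-59323295 (plus strand).
Bnip3: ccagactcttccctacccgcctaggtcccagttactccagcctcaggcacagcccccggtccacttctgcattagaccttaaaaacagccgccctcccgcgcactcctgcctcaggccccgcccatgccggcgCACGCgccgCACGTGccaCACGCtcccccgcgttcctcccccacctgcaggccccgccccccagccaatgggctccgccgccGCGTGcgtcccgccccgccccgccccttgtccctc
Ldha: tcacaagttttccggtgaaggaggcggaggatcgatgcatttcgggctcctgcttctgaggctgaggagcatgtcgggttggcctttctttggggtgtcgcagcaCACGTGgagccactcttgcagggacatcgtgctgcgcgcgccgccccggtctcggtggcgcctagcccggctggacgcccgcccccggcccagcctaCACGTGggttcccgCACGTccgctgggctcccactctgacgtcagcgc
Ankrd37: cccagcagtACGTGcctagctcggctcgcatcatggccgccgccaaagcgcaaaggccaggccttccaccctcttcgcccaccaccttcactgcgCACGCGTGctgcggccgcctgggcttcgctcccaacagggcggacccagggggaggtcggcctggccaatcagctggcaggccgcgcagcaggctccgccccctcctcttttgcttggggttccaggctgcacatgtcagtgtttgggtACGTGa
P4ha1: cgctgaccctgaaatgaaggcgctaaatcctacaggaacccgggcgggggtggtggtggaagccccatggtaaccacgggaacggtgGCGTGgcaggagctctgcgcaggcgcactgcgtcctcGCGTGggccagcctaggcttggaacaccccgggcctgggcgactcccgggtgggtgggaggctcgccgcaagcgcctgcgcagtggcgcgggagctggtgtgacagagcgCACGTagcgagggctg
Bnip3 and Ldha hold CACGTG among their matches, which reads the same on both strands. A match is a description of the letters and not a bound site. Genes that varied little between libraries also held matches, such as Hif1a and Pfkm (up to 2 places in a promoter) and Pfkfb4 (1). A link between matches and the variation between libraries was not tested. The other promoters with 3 places belong to P4ha2, Pfkp and Pgam1.

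At 24 and 48 h libraries of the same group differed several-fold for many of these genes, while at 3 h of control culture they lay close together. Slc2a1, the main glucose importer of most cells, stood at 91.3, 98.3, 90.7, 91.6 and 100.6 CPM in control replicates 1 to 5 at 3 h. At 24 h the values were 171, 124, 51.0, 53.3 and 76.0 CPM. The mean was 94.5 ± 4.61 CPM at 3 h and 95.038 ± 51.6 at 24 h (SD, n = 5). Replicates 1 and 2 lay above, and 3, 4 and 5 below, every library of 3 h.

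Vegfa, the growth factor that draws in blood vessels, stood at 97.6 to 106 CPM in the control libraries of 3 h and at 276, 208, 107, 93.7 and 122 CPM at 24 h. Replicates 1 and 2 were again the high ones. Bnip3, a mitophagy receptor and a well-known HIF target, had 57.4, 45.021, 17.4, 17.6 and 34.1 CPM at 24 h, against 23.1 to 24.6 CPM at 3 h. Replicates 1, 2 and 5 lay above the range of 3 h and replicates 3 and 4 below it. Slc16a3, the lactate exporter MCT4, had 76.4, 57.6, 18.6, 21.3 and 30.0 CPM at 24 h, against 33.003 to 35.5 CPM at 3 h, with replicates 1 and 2 above that range and the other 3 below it.

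**Figure D1:**
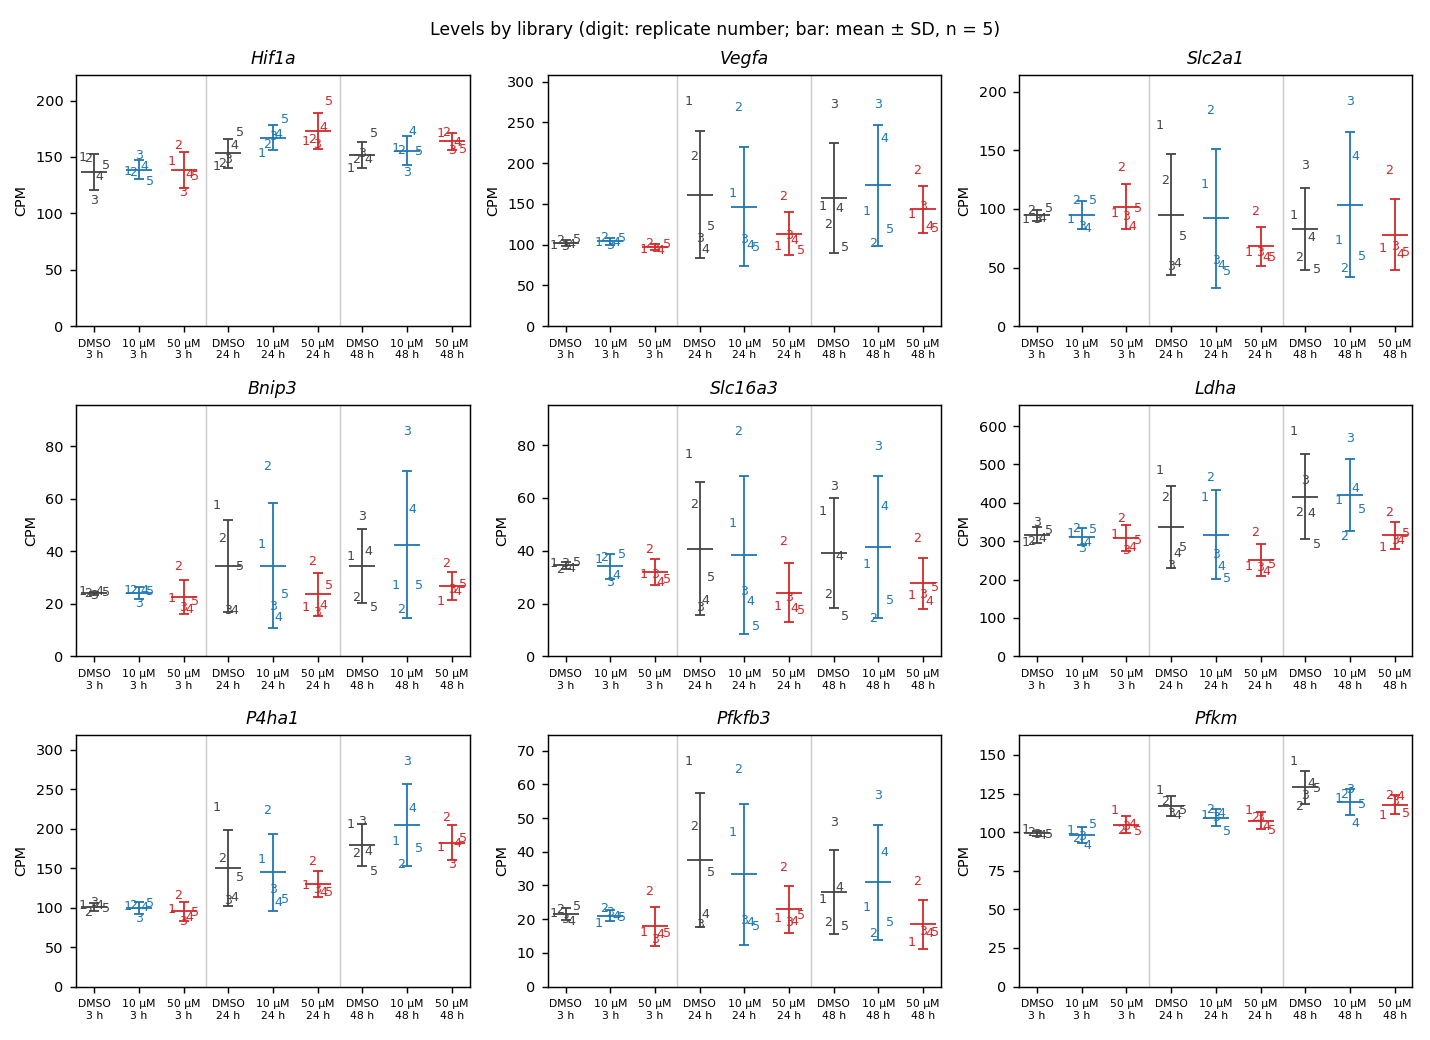
Levels of 9 genes in CPM (vertical axes, from 0) in the 45 libraries, by dose and culture time; each digit is 1 library at its replicate number, and the bars give the mean and SD of 5. Vegfa, Slc2a1, Bnip3, Slc16a3, Ldha, P4ha1 and Pfkfb3 spread apart at 24 and 48 h in the control and 10 µM groups, while Hif1a and Pfkm do not.

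The same libraries were high for most of the genes. In control culture at 24 h replicate 1 was the highest of 5 for 32 of the 36 rows, and replicates 3 and 4 were the lowest for 17 each. With 10 µM at 24 h replicate 2 was the highest for 34 rows and replicate 5 the lowest for 23. At 48 h the highest library was control replicate 3 for 23 rows and control replicate 1 for 11, and with 10 µM it was replicate 3 for 30. The lowest were control replicate 5 for 29 rows and 10 µM replicate 2 for 30. With 50 µM replicate 2 was the highest at each time, for 28 rows at 3 h, 29 at 24 h and 32 at 48 h. Mean differences from the group mean, on the log2(CPM + 1) scale, were 0.63 for control replicate 1 and 0.75 for 10 µM replicate 2 at 24 h, and -0.41 and -0.43 for control replicates 3 and 4.

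**Figure D2:**
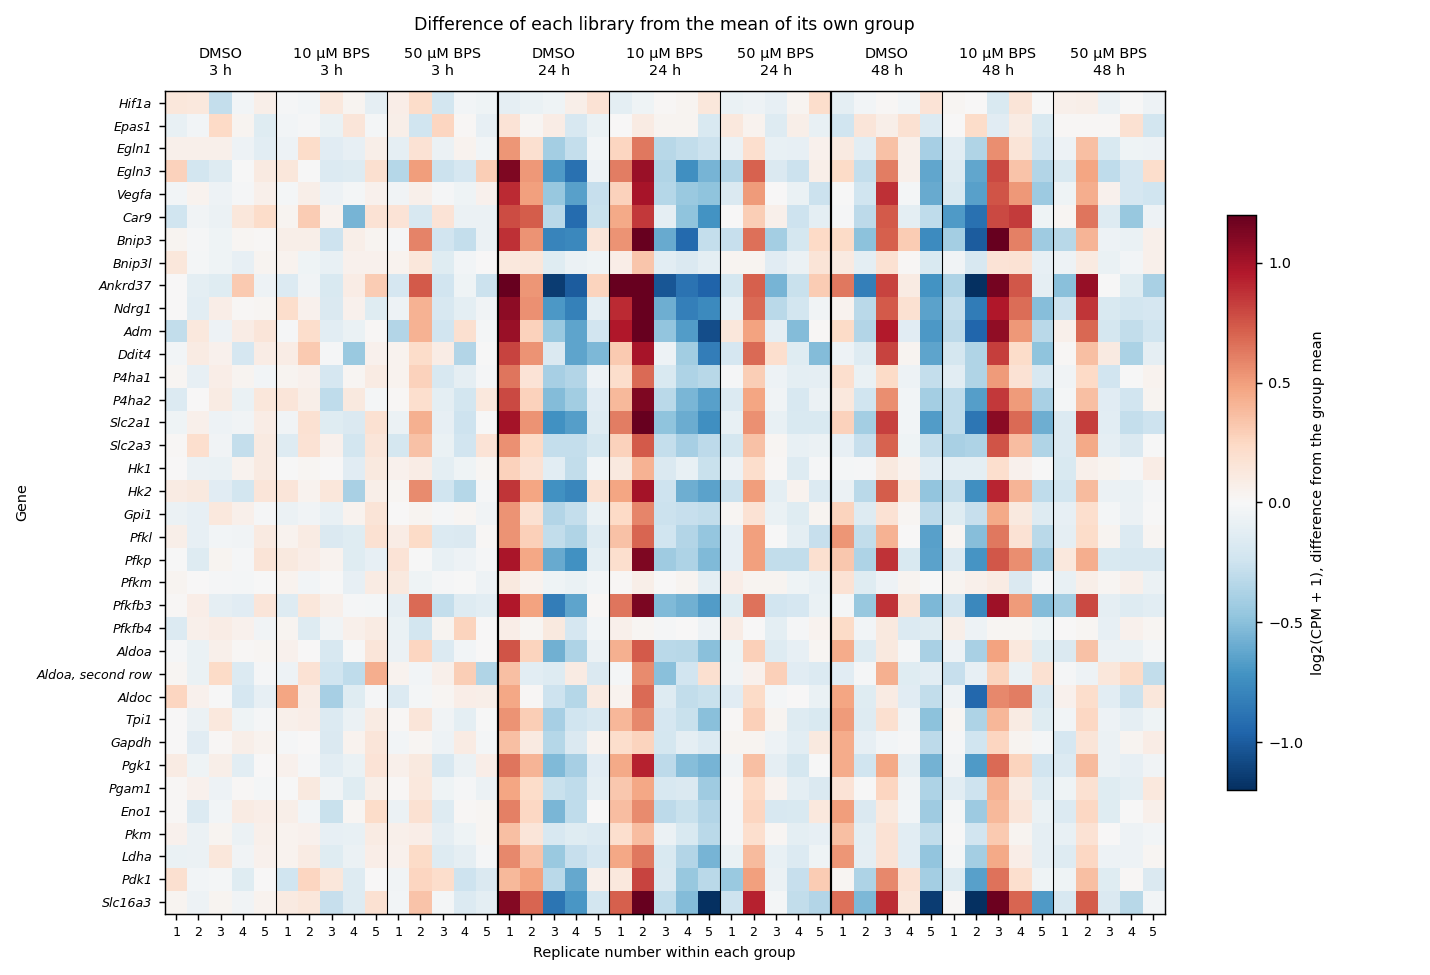
Each row is a gene row and each column a library, grouped by dose and time; colour gives log2(CPM + 1) minus the mean of that library's group, red above and blue below. Whole columns turn red or blue at 24 and 48 h, such as control replicate 1 and 10 µM replicate 2 at 24 h, while the rows of Hif1a, Epas1, Pfkm and Pfkfb4 stay pale.

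The spread of these genes was set beside that of all genes tested. Their median SD between libraries, on the log2(CPM + 1) scale, was 0.09 in control culture at 3 h, where the median of all 18432 genes was 0.13. At 24 h it was 0.45 in control and 0.50 with 10 µM, against 0.14 for all genes in both groups. Of all genes 1.51% and 0.819% spread that widely or more. These shares were not matched for level. Only 15102 of the 18432 genes had 1 CPM or more in control at 24 h, and the added 1 CPM narrows the spread of lower ones. The genes described here were chosen with earlier results of these data known. At 48 h the medians were 0.38 and 0.46. With 50 µM they were 0.17, 0.21 and 0.21 at 3, 24 and 48 h, but 0.10, 0.11 and 0.11 when replicate 2 was left out. Without control replicate 1 the median of 24 h was 0.34, and without 10 µM replicate 2 it was 0.35. In control culture at 24 h the highest library had at least 2 times the level of the lowest for 20 of the 36 rows, against 9.04% of the genes with 1 CPM or more. At 3 h the count was 0 in control, against 7.69% of such genes, and at 24 h with 50 µM it was 7, against 9.59%.

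**Figure D3:**
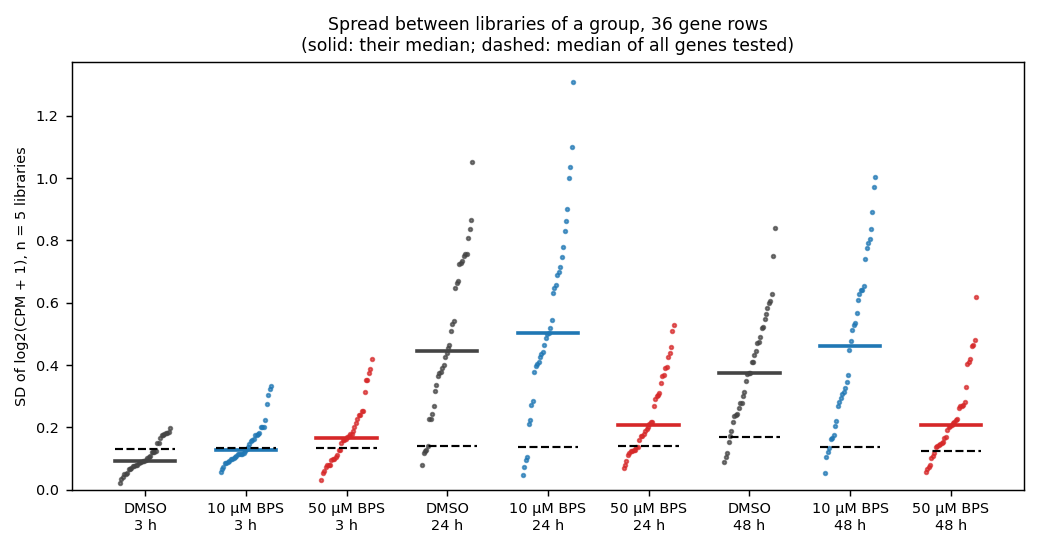
SD of log2(CPM + 1) over the 5 libraries of each group (vertical axis) for each of the 36 gene rows (points, sorted); solid lines give their median and dashed lines the median of all genes tested. The solid line lies below the dashed one in control at 3 h (0.09 against 0.13) and far above it at 24 h in control (0.45 against 0.14).

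Over all 45 libraries, the squared differences of a row from its mean were split into shares. Libraries within a group held a median of 66.4%, dose within time 8.50% and time 23.2%. For all genes tested these medians were 50.65, 7.38 and 38.3%. The shares were not corrected for the number of libraries, doses and times, so noise alone would give most of the total to libraries. The members differed among themselves. The pooled SD on the log2(CPM + 1) scale was 0.77 for Ankrd37, a small ankyrin-repeat protein, 0.68 for Slc16a3, 0.58 for Ndrg1, a stress-response gene, and 0.58 for Adm. Hk2, the inducible hexokinase, had 94.1% of its squared differences between libraries of a group, Slc16a3 90.4% and Slc2a1 88.4%. The steadiest rows were Pfkm (0.08), the muscle-type phosphofructokinase, Pfkfb4 (0.11), Hif1a (0.12), Bnip3l (0.13), Epas1 (0.15) and Hk1 (0.15). Related genes differed: Pfkfb3, which makes the activator of phosphofructokinase, had a pooled SD of 0.54 beside 0.11 for Pfkfb4, and Bnip3 had 0.57 beside 0.13 for Bnip3l.

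Hif1a did not show this pattern. In control culture at 24 h it stood at 141, 144, 148, 160.4 and 172 CPM, so the library with the highest Slc2a1 had the lowest Hif1a. Pfkm had 127, 119.7, 112, 111 and 114 CPM there. Egln3, a sensor hydroxylase that is itself a HIF target, was high in the same libraries as Slc2a1, with 32.4, 21.1, 8.61, 7.24 and 13.7 CPM. Egln1, the main oxygen sensor of the family, had 126, 99.3, 65.0, 71.2 and 84.6 CPM, again highest in replicates 1 and 2.

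Other hypoxia genes also differed in these libraries, with smaller mean differences. Of 36 further genes of the hypoxia response, control replicate 1 at 24 h was the highest of 5 for 23, with a mean difference of 0.27, and 10 µM replicate 2 for 26, with 0.35. At 48 h, 10 µM replicate 3 and 50 µM replicate 2 were the highest for 23 each. The 23 genes of pyruvate oxidation and the citric acid cycle showed mean differences of 0.01 and -0.06 in the same libraries of 24 h. Of 23 further glycolysis genes, control replicate 1 was the highest for 11 and 10 µM replicate 2 for only 5 and the lowest for 7, with mean differences of 0.14 and 0.06. Control replicate 1 and 10 µM replicate 2 at 24 h held 17.7 and 17.0 M reads, within the range of all libraries.

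Markers of other cell types also differed in some of the high libraries. Control replicate 1 at 24 h had mean differences of 0.33 for the 15 epidermis markers, 0.30 for 12 erythroid, 0.17 for 12 endothelial and 0.05 for 14 cartilage markers. In 10 µM replicate 2 at 24 h the same lists gave 0.08, 0.03, 0.14 and 0.06. The 11 macrophage markers gave 0.155 and 0.04 in these 2 libraries, and 15 muscle markers 0.10 and 0.01. Control replicate 3 at 48 h had -0.39 for cartilage, -0.35 for 15 muscle, 0.25 for 8 limb mesenchyme and 0.27 for erythroid markers. Its epidermis markers gave 0.23 and its endothelial markers 0.15. In 10 µM replicate 3 at 48 h cartilage gave 0.01, muscle -0.19 and endothelial markers -0.11. In 10 µM replicate 4 at 48 h muscle gave -0.23, erythroid -0.52 and limb mesenchyme 0.16. Muscle gave 0.15 in control replicate 1 and 0.03 in 50 µM replicate 2 at 48 h. The share of mitochondrial reads was 1.40% in control replicate 1 at 24 h and 1.48 to 2.05% in the other 4. The library with the highest mean over the 36 rows also had the lowest share in control at 48 h (replicate 3, 1.29%) and with 50 µM at 3 and 24 h (replicate 2, 1.47 and 1.56%), but not in control at 3 h, with 10 µM at 3 and 24 h or with 50 µM at 48 h. With 10 µM at 48 h, replicates 3 and 4, the highest by that mean, had the lowest shares (1.42 and 1.40%). The part of these values in the spread was not tested. In whole limb buds, fewer cells of a type and less RNA per cell cannot be told apart.

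Time in control culture was compared first, since each BPS group is read against it. From 3 to 24 h 5 of the 36 rows were called higher and 4 lower, where 40.2% of the 16536 genes tested were called, 20% higher and 20.1% lower. From 3 to 48 h 9 were called higher and 5 lower, where 49.3% of all genes were called, 24.5% higher and 24.8% lower. From 24 to 48 h 1 row was called, higher, where 16% of all genes were called and 9.44% higher. With both directions counted, the shares of the rows called lie below those of all genes in each step. The share called higher from 3 to 48 h (9 of 36) does not lie below 24.5%. Without control replicate 5 of 48 h, 15 rows were called higher and 5 lower in that step. The median SE of the rows was 0.205 from 3 to 24 h, 0.174 from 3 to 48 h and 0.252 from 24 to 48 h. For all genes it was 0.0907, 0.103 and 0.106. The rows had the larger SE, so fewer calls do not show less change. The median change was 0.23 from 3 to 24 h, against -0.01 for all genes, but -0.0015 without control replicate 1 of 24 h, and it was 0.19 from 3 to 48 h, but 0.05 without control replicate 3 of 48 h. With scaling by library totals the calls split 3 higher to 5 lower at 24 h, where 41.3% of all genes were called, and 8 to 8 at 48 h, where 52.1% were. The 3 comparisons share control libraries. Against library totals the median of all genes was -0.09 from 3 to 48 h.

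Of the oxygen-regulated factors, Epas1 changed both ways. Its control values were 26.6, 27.7, 33.6, 29.0 and 25.5 CPM at 3 h, 25.5, 22.9, 24.0, 19.6 and 21.3 at 24 h and 28.1, 36.9, 34.8, 37.9 and 29.6 at 48 h. The libraries of 24 h lay below all those of 3 h and of 48 h, although the nearest libraries of 3 and 24 h both round to 25.5 CPM. Epas1 fell by 0.33 ± 0.0883 from 3 to 24 h (edgeR adjusted p = 0.00488) and rose by 0.56 ± 0.1 from 24 to 48 h (edgeR adjusted p = 0.00112), the only row called in that step. In the fit of all 45 libraries Pfkm was called there too (0.14, edgeR adjusted p = 0.0419). Leaving out 1 library added P4ha1 to that step (0.45 without replicate 1 of 24 h, edgeR adjusted p = 0.0264) or Slc2a3 (-0.69 without replicate 3 of 48 h, edgeR adjusted p = 0.0177). From 3 to 48 h Epas1 was not called (0.24 ± 0.0984, edgeR adjusted p = 0.0555), but was without replicate 3 of 3 h, or replicate 1 or 5 of 48 h (edgeR adjusted p = 0.0182, 0.00782 and 0.0307). Epas1 was also called there with RLE scaling, with no filter on low counts and in the fit of all 45 libraries (edgeR adjusted p = 0.0487, 0.0295 and 0.0294). Hif1a had 137 ± 15.9 CPM at 3 h and 153 ± 12.8 at 24 h (SD, n = 5), a difference of 0.16 ± 0.0743 that was not called (edgeR adjusted p = 0.0964, but 0.0492 without replicate 1 of 3 h and 0.0233 with no filter). At 48 h Hif1a was not called either, but was without replicate 1 of 48 h (0.20, edgeR adjusted p = 0.0423). All 12 endothelial markers were called lower at 24 h, and their part in the Epas1 values was not tested.

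Egln3 rose from 8.64 ± 1.34 CPM at 3 h to 18.5 ± 6.31 at 48 h. Its control libraries of 48 h had 21.0, 14.4, 27.6, 18.5 and 11.2 CPM, all above the 7.21 to 10.6 CPM of 3 h. The change was 1.10 ± 0.205 (edgeR adjusted p = 0.000445). At 24 h the difference of 0.94 ± 0.42 was not called (edgeR adjusted p = 0.111, but 0.0466 without control replicate 4 of 24 h and 0.0369 in the fit of all 45 libraries). Egln1 was not called, with 0.29 ± 0.174 at 24 h and 0.19 ± 0.107 at 48 h, where leaving out control replicate 5 of 48 h gave 0.28 (edgeR adjusted p = 0.0107).

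Among the classic HIF targets only some passed the test. Ndrg1 had 41.3, 31.8, 67.2, 45.7 and 25.3 CPM in control at 48 h, all above the 21.1 to 24.5 CPM of 3 h, and rose by 0.87 ± 0.218 (edgeR adjusted p = 0.00628, but 0.0594 in the fit of all 45 libraries). Adm rose by 1.28 ± 0.405 at 24 h and 1.09 ± 0.396 at 48 h (edgeR adjusted p = 0.0187 and 0.0322), from 1.02 ± 0.244 to 2.48 ± 1.81 and 2.15 ± 1.499 CPM. Its values at 24 h were 5.48, 2.84, 1.32, 1.04 and 1.70 CPM, and the groups overlapped. Leaving out control replicate 1 of 24 h gave 0.75 (edgeR adjusted p = 0.0682), and leaving out replicate 1 or 3 of 3 h also ended that call (0.0522 and 0.0501). At 48 h Adm lost its call without any of 4 libraries, replicates 1 and 3 of both times, with 0.60 (edgeR adjusted p = 0.145) without replicate 3 of 48 h. The fit of all 45 libraries ended both Adm calls (edgeR adjusted p = 0.0876 at 24 h and 0.129 at 48 h). Ddit4 fell by 0.68 ± 0.229 at 48 h, from 179 ± 15.1 to 112 ± 44.3 CPM (edgeR adjusted p = 0.0338), while control replicate 3 of 48 h stood at 186 CPM. Leaving out replicate 2, 3 or 5 of 3 h, or 1, 2 or 4 of 48 h, ended the Ddit4 call (edgeR adjusted p = 0.0583 to 0.093), as did no filter (0.0859) and the fit of all 45 libraries (0.0525).

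The other targets were not called in control culture by edgeR with all libraries, TMM scaling and the filter. Vegfa differed from 3 h by 0.67 ± 0.306 at 24 h and 0.63 ± 0.242 at 48 h, the second with an edgeR adjusted p of 0.0563. Without control replicate 3 of 48 h, the highest, Vegfa was called with a smaller difference of 0.35 (edgeR adjusted p = 0.0083), and it was called also without replicate 2 or 5 (0.049 and 0.0137). DESeq2 called Vegfa at 48 h as well (0.64, adjusted p = 0.0331). Bnip3 differed by 0.51 ± 0.344 and 0.52 ± 0.248, and was called at 48 h without replicate 2 or 5 of 48 h (edgeR adjusted p = 0.0369 and 0.0088). Car9 differed by 0.68 ± 0.37 and 0.32 ± 0.242, and was called at 24 h without control replicate 4 (edgeR adjusted p = 0.0165) and with no filter (0.0243). Ankrd37 differed by 0.43 ± 0.602 and 0.19 ± 0.374. Bnip3l differed by -0.02 ± 0.0609 and -0.14 ± 0.073, and was called lower at 48 h without control replicate 3 (edgeR adjusted p = 0.0472) and with library totals (0.0157).

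P4ha1, the catalytic subunit of the hydroxylase that stabilises collagen triple helices, had the smallest adjusted p of the rows at 48 h. It had 102, 93.8, 106, 103 and 98.4 CPM at 3 h, 227, 162, 109.6, 113 and 138 at 24 h, and 205, 168, 209, 170.5 and 145 at 48 h. All libraries of 24 and 48 h lay above all of 3 h. It rose by 0.84 ± 0.0863 at 48 h (edgeR adjusted p = 5.22e-07), a call kept without each library in turn. The rise of 0.58 ± 0.199 at 24 h (edgeR adjusted p = 0.0491) was lost without any of 7 single libraries, all 5 of 3 h and replicates 2 and 5 of 24 h (edgeR adjusted p = 0.0663 to 0.0983), with library totals (0.0578) and with no filter (0.0891). Its relative P4ha2 was not called, with 0.31 ± 0.259 and 0.29 ± 0.151, but was at 48 h without control replicate 5 of 48 h (edgeR adjusted p = 0.0262). Of the 14 cartilage markers 13 were called higher at each time and 1 was called lower at 48 h. Their part in the P4ha1 values was not tested.

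Slc2a1 was not called, with 0.01 ± 0.344 at 24 h and -0.19 ± 0.252 at 48 h and 95% intervals from -0.78 to 0.80 and from -0.76 to 0.38. Without control replicate 3 of 48 h it was called lower at 48 h, with -0.44 (edgeR adjusted p = 0.0375). Slc2a3, a high-affinity glucose transporter, had 44.9, 39.7, 79.6, 46.5 and 39.5 CPM at 48 h against 63.5 to 89.0 CPM at 3 h. Only replicate 3 of 48 h lay within the range of 3 h, and Slc2a3 fell by 0.64 ± 0.186 (edgeR adjusted p = 0.0151). The call was lost without control replicate 1 of 48 h (edgeR adjusted p = 0.0679) and with no filter (0.0616).

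The enzymes from glucose to pyruvate were called in both directions. Aldoa, the main aldolase here, had 673, 442, 536, 484.4 and 376 CPM at 48 h against 315 to 347 at 3 h, all higher, and rose by 0.59 ± 0.117 (edgeR adjusted p = 0.000611). Aldoc, the brain-type aldolase, rose by 0.96 ± 0.177 at 24 h (edgeR adjusted p = 0.00018) and 0.64 ± 0.183 at 48 h (edgeR adjusted p = 0.00806). Pfkm rose by 0.23 ± 0.0505 and 0.38 ± 0.0617 (edgeR adjusted p = 0.000856 and 6.65e-05), and its libraries of 24 and 48 h all lay above those of 3 h. Pfkm is the muscle-type enzyme, and all 14 muscle markers tested at 24 h were called higher, a change whose part in the Pfkm values was not tested. Gpi1, the glucose-6-phosphate isomerase, rose by 0.34 ± 0.0933 at 48 h (edgeR adjusted p = 0.00644, but 0.0586 in the fit of all 45 libraries). Hk1, the constitutive hexokinase, was called at 24 h with 0.23 ± 0.0893 (edgeR adjusted p = 0.0473), a call lost without any of 7 single libraries, replicates 1 to 4 of 3 h and 1, 2 and 5 of 24 h (edgeR adjusted p = 0.0713 to 0.111) and with library totals (0.082). At 48 h Hk1 was not called, but was without replicate 5 of 3 h or replicate 1 or 5 of 48 h (edgeR adjusted p = 0.0423, 0.0264 and 0.0246), with RLE scaling (0.044) and with DESeq2 (adjusted p = 0.0401).

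Gapdh and Pkm, the rows with the highest levels per kilobase, fell. Gapdh had 1005, 909, 1008, 1049 and 1031 CPM at 3 h and 924, 778, 568, 638 and 743 CPM at 24 h. Only replicate 1 of 24 h reached the earlier range, and Gapdh fell by 0.45 ± 0.112 (edgeR adjusted p = 0.00747) and by 0.39 ± 0.108 at 48 h (edgeR adjusted p = 0.00721). Pkm went from 784 ± 35.2 to 610.1 ± 107 and 625 ± 117 CPM and fell by 0.36 ± 0.0979 and 0.32 ± 0.101 (edgeR adjusted p = 0.0101 and 0.0141). The second Aldoa row fell by 0.61 ± 0.191 and 0.66 ± 0.194 (edgeR adjusted p = 0.014 and 0.00983). Hk2, Pfkl, Pfkp, Pfkfb3, Pfkfb4, Tpi1, Pgk1, Pgam1 and Eno1 were not called in any step with all libraries, TMM scaling and the filter, although leaving out 1 control library gave calls for Pgam1 (-0.25 at 24 h without replicate 1 of 24 h, edgeR adjusted p = 0.0356) and Pfkfb3 (0.98 at 24 h without replicate 3 of 24 h, edgeR adjusted p = 0.0411). Pfkfb4 was called lower without replicate 1 of 3 h at 24 and 48 h (-0.24 and -0.27, edgeR adjusted p = 0.038 and 0.0389) and at 48 h without replicate 1 of 48 h (-0.28, edgeR adjusted p = 0.0175). It was also called lower at 24 and 48 h with library totals (edgeR adjusted p = 0.0346 and 0.0118) and in the fit of all 45 libraries (0.0403 and 0.0134), and Pgam1 at 48 h with library totals (0.0419).

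At the branch from pyruvate to lactate, Ldha had 585, 375, 458, 372 and 292 CPM in control at 48 h against 298 to 348 CPM at 3 h. Replicate 5 lay below the earlier range and the other 4 above it. Ldha rose by 0.40 ± 0.147 (edgeR adjusted p = 0.0369), and the call was lost without any of 6 single libraries, control replicates 1, 2, 4 and 5 of 3 h and 1 and 3 of 48 h (edgeR adjusted p = 0.0517 to 0.0838), with library totals (0.07), with no filter (0.13) and in the fit of all 45 libraries (0.0821). Pdk1, the kinase that shuts pyruvate dehydrogenase, was not called (0.24 ± 0.213 at 24 h and 0.22 ± 0.169 at 48 h). Slc16a3 was not called either (0.19 ± 0.359 at 48 h, 95% interval from -0.63 to 1.00).

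**Figure D4:**
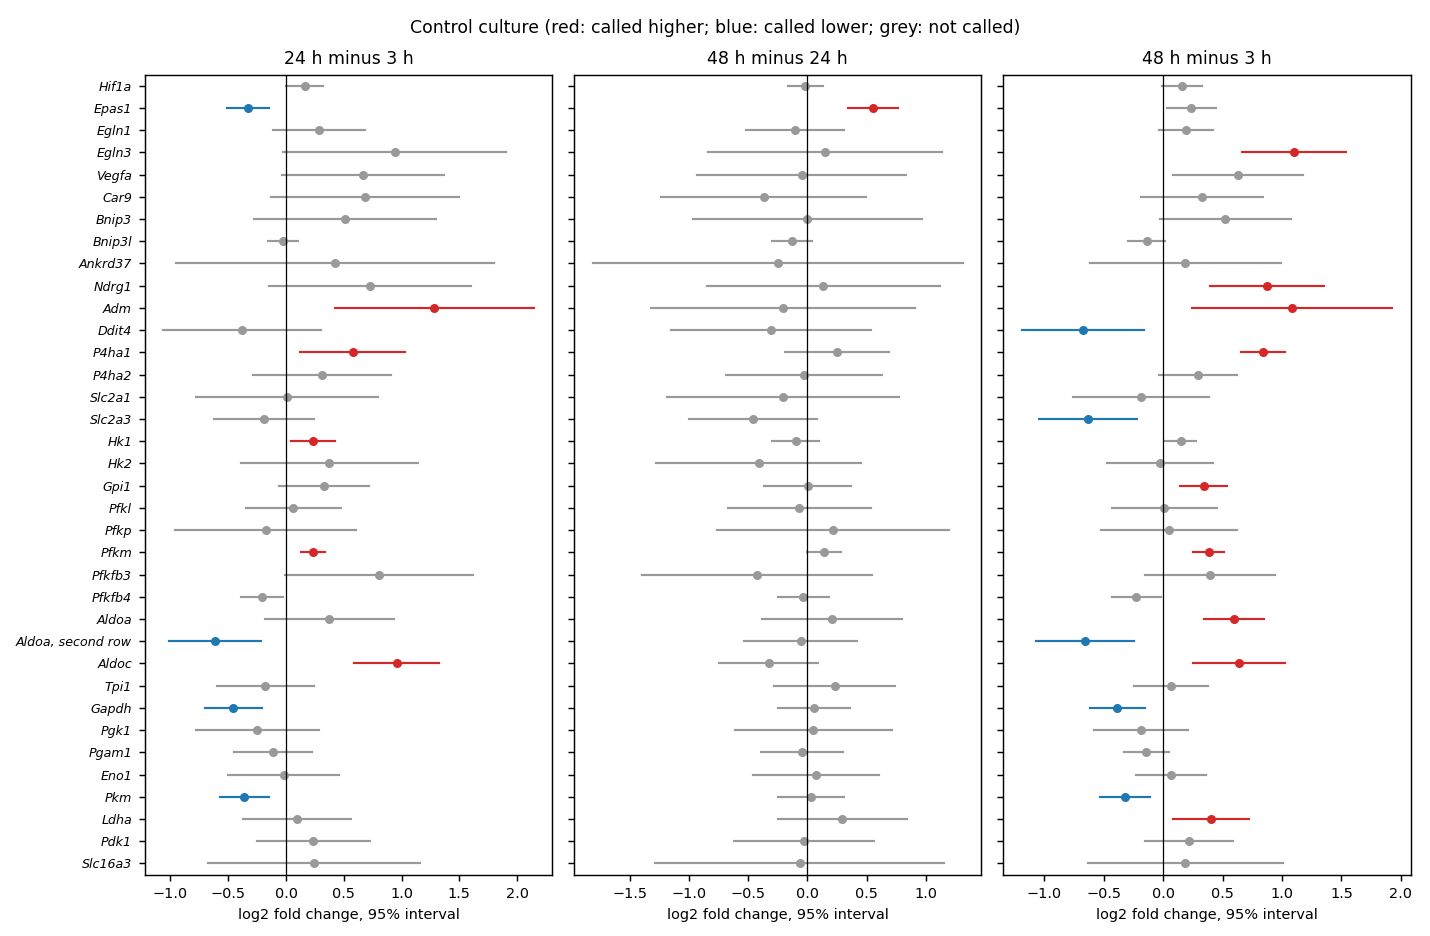
Log2 fold changes with 95% intervals (horizontal axes) for the 36 gene rows in control culture, 24 minus 3 h, 48 minus 24 h and 48 minus 3 h; red rows were called higher, blue lower and grey not called. The calls of 48 minus 3 h number 9 in red and 5 in blue, and many grey intervals span over 1 log2 unit.

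No gene row was called with 10 µM BPS at any time, and neither was any gene that passed the filter on low counts in those 3 comparisons (0% called by edgeR). At unadjusted p below 0.05, edgeR gave 1 row lower at 3 h, 0 at 24 h and 1 higher at 48 h, where 1.98, 2.99 and 2.62% of all genes passed, and DESeq2 called 0 rows at each time, and 0% of all genes. At 3 h all 36 of the 95% intervals lay within 2-fold either way, at 24 h 22 did and at 48 h 27. Slc2a1 had 121, 184, 56.0, 51.8 and 47.0 CPM with 10 µM at 24 h beside 171, 124, 51.0, 53.3 and 76.0 in control, and the groups overlapped. The difference was -0.05 ± 0.522, with an interval from -1.25 to 1.15. Of the 36 rows 23, 29 and 7 lay below 0 at 3, 24 and 48 h, where 50.5, 51.6 and 50.3% of all genes did. Without each library in turn these counts ran from 14 to 26, 5 to 34 and 2 to 27. Medians over the rows were -0.01, -0.08 and 0.10 at 3, 24 and 48 h, and each changed sign when 1 library was left out (0.02 without 10 µM replicate 3 at 3 h, 0.12 without control replicate 1 at 24 h, -0.09 without 10 µM replicate 3 at 48 h).

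With 50 µM BPS the levels at 24 h stood lower than control for most of the genes, but no row passed the test. The median difference was -0.37, against 0.0027 for all genes, and 33 of the 36 rows were below 0, where 49.2% of all genes were. EdgeR called 0 of the 36 rows, where 0.375% of 16512 genes were called (62). At unadjusted p below 0.05 it gave 2 rows higher and 3 lower, where 12.4% of all genes passed, and DESeq2 called 1 row (Aldoc) and 1.68% of all genes. No row had groups that did not overlap, where 2.8% of all genes did. The median lay at -0.16 without control replicate 1 and at -0.50 without control replicate 3. Between 32 and 34 rows stayed below 0 without each library in turn, but this check never removes control replicates 1 and 2 together. Most rows moved together by library, so a count of rows does not count separate results. With 10 µM, 29 of 36 rows were below 0 at 24 h, where 51.6% of all genes were below 0 and 0% were called.

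Slc2a1 had 62.5, 98.0, 62.4, 58.4 and 58.7 CPM with 50 µM at 24 h and 171, 124, 51.0, 53.3 and 76.0 CPM in control. Control replicates 1 and 2 stood above all 5 treated libraries and control replicates 3 and 4 below them all. The difference of -0.48 ± 0.375 was not called (edgeR adjusted p = 0.662). Slc16a3 had 18.9, 43.7, 22.2, 18.2 and 17.5 CPM with 50 µM, against 76.4, 57.6, 18.6, 21.3 and 30.0 in control, with a difference of -0.75 ± 0.478 (edgeR adjusted p = 0.582). Ankrd37 had 0.926, 2.66, 0.513, 0.852 and 1.76 CPM against 8.98, 4.73, 0.792, 0.982 and 3.78, and its difference of -1.53 ± 0.731, with an interval from -3.19 to 0.13, was the largest of the 36 rows at this time. Control replicates 1, 2 and 5 stood above all treated libraries, and 3 and 4 lay within their range. The difference was -0.51 ± 0.335 for Vegfa, -0.54 ± 0.401 for Bnip3, -0.86 ± 0.424 for Ndrg1 and -0.71 ± 0.389 for Pfkfb3. The intervals of 16 rows reached a level 2-fold lower, so a change of that size lay within them.

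Aldoc had the smallest adjusted p at 24 h. It had 3.66, 5.00, 4.06, 4.14 and 3.86 CPM with 50 µM and 9.43, 6.62, 5.39, 4.97 and 7.17 CPM in control. Only the highest treated and the lowest control library crossed. The difference was -0.69 ± 0.172, with an edgeR adjusted p of 0.077. It passed with DESeq2 (adjusted p = 0.0154), with no filter on low counts (edgeR adjusted p = 0.0072, 0.791% of all genes called) and with the replicate number as a block (edgeR adjusted p = 0.0116). At 48 h Aldoc differed by -0.07 ± 0.175, which was not called.

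At 24 h, as at 3 h, same-numbered libraries of the 50 µM and control groups deviated together over all genes. The fit with the replicate number as a block is therefore given for both. Libraries of unlike number reached correlations of 0.299 at 3 h and 0.14 at 24 h. Over the 36 rows at 24 h, replicate 1 had mean differences of 0.63 in control and -0.09 with 50 µM, and replicate 2 0.30 and 0.36. With the block, edgeR called 3 of the 36 rows at 24 h, where 5.75% of all genes were called. Adm was lower with -1.02 (edgeR adjusted p = 0.0306, and 0.34 without the block) and Aldoc was lower. Hif1a was higher with 0.18 (edgeR adjusted p = 0.00363, and 0.256 without the block). Hif1a had 163, 165, 161, 176 and 199 CPM with 50 µM and 141, 144, 148, 160.4 and 172 in control, higher in 5 of 5 same-numbered pairs, while the groups overlapped. At 3 h the block gave 1 call, Ddit4, higher with 0.19 (edgeR adjusted p = 0.00927, and 0.655 without the block), where 1.53% of all genes were called.

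At 3 h edgeR without the block called 0 rows with 50 µM, where 0.0538% of all genes were called, and the median difference was -0.04, with -0.09 without replicate 2 of the 50 µM group. At unadjusted p below 0.05, 1 row was lower, where 7.98% of all genes passed, and DESeq2 called 0 of the 30 rows to which it gave an adjusted p, and 0.586% of all genes. Without replicate 2 of the 50 µM group, Pfkfb3 (-0.50, edgeR adjusted p = 0.0291) and Ankrd37 (-1.12, edgeR adjusted p = 0.0463) were called lower. Pfkfb3 had 16.0, 28.3, 13.9, 15.4 and 15.7 CPM, against 19.4 to 23.9 in control, so 4 treated libraries lay under every control library and replicate 2 above them all. Ankrd37 had 1.28, 3.38, 1.24, 1.53 and 1.197 CPM against 2.48 to 3.79, and 4 treated libraries again lay under every control library.

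At 48 h edgeR called 0 rows with 50 µM, where 1% of 16663 genes were called. At unadjusted p below 0.05, 1 row was lower, where 12.9% of all genes passed, and DESeq2 called 0 rows and 2.68% of all genes. The median was -0.19, with 31 of 36 rows below 0, where 51.2% of all genes were. It was -0.06 with 22 of 36 without control replicate 3, and -0.30 without replicate 2 of the 50 µM group. Ldha had the smallest adjusted p, with 282, 374, 301, 301 and 320.1 CPM against 585, 375, 458, 372 and 292 in control, and the groups overlapped. Its difference was -0.40 ± 0.158 (edgeR adjusted p = 0.311, 95% interval from -0.75 to -0.05). P4ha1 (0.02 ± 0.0978) and Gpi1 (-0.05 ± 0.0952) had narrow intervals, from -0.19 to 0.23 and from -0.25 to 0.16. Of 11 macrophage markers 4 were called lower in this comparison, with a median of -0.49, and 1 at 24 h, with a median of -0.37. At 48 h all 12 endothelial markers were below 0 and 2 were called lower, with a median of -0.26. The mitochondrial share at 48 h was 1.69 to 1.89% in the 5 treated libraries and 1.29 to 1.57% in the 5 control ones, without overlap. Their part in these values was not tested.

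**Figure D5:**
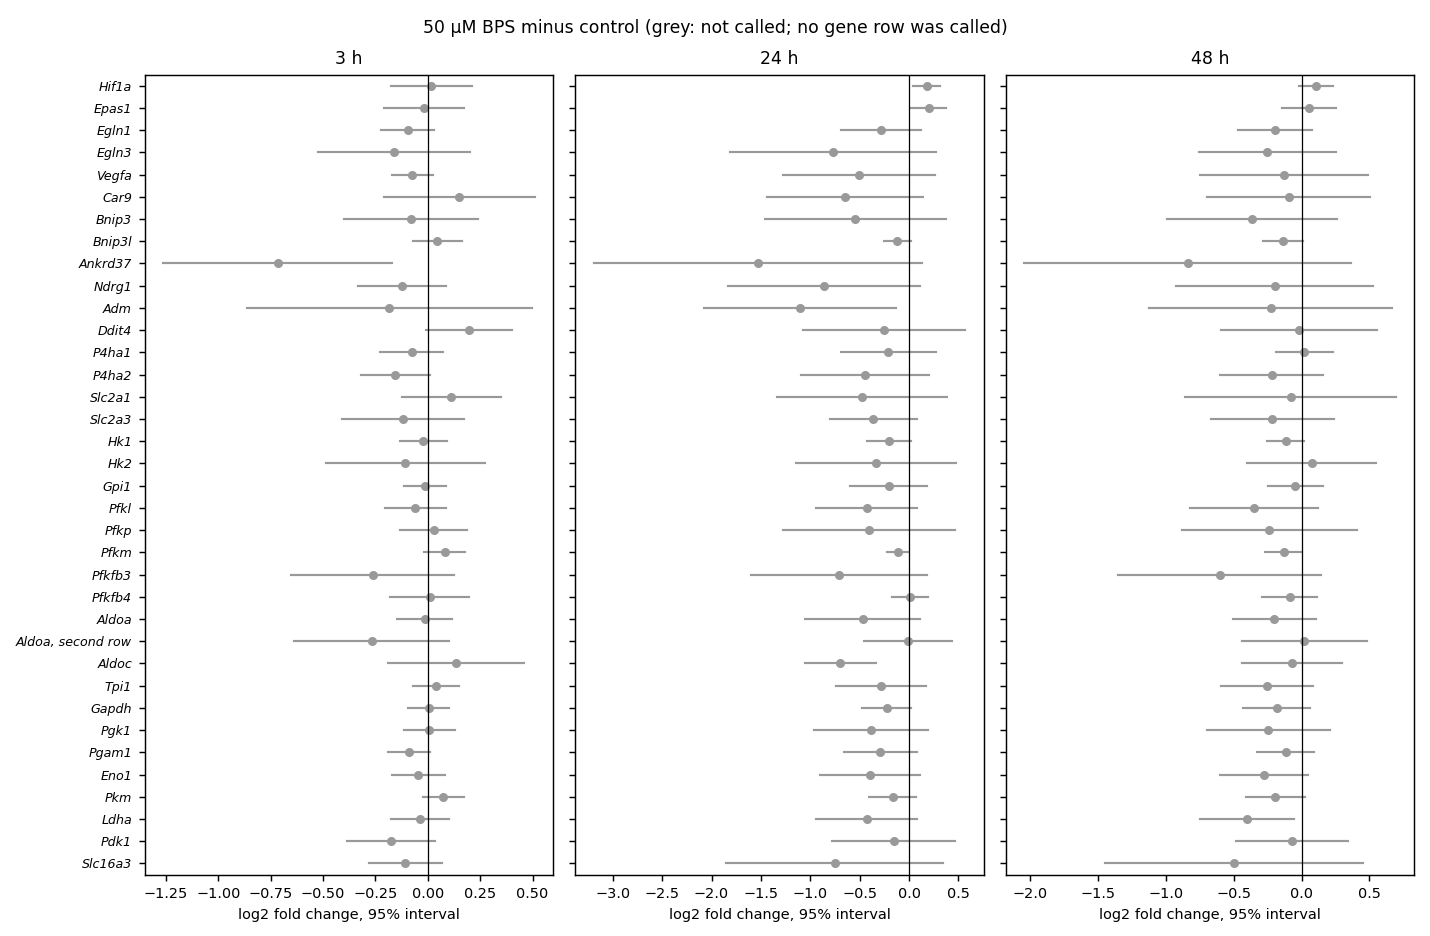
Log2 fold changes with 95% intervals (horizontal axes) for the 36 gene rows, 50 µM BPS minus control, at 3, 24 and 48 h; no row was called. Most points lie left of 0 at 24 h (33 of 36) and at 48 h (31 of 36), and the intervals are widest at 24 h.

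Whether the 50 µM difference changed with time was tested as an interaction over the 45 libraries. EdgeR called 0 rows between 3 and 24 h and between 24 and 48 h, where 0% of 18432 genes were called, and 0 rows between 3 and 48 h, where 0.0922% were. At unadjusted p below 0.05 there were 2, 0 and 1 rows, each with a negative difference, where 6.58, 3.47 and 8.34% of all genes passed, and DESeq2 called 0 rows in each, and 0, 0 and 0.58% of all genes. The median was -0.34 between 3 and 24 h, 0.16 between 24 and 48 h and -0.15 between 3 and 48 h, and each moved when 1 replicate number was left out. The first was -0.14 without replicate 1. The second was 0.04 without replicate 2 and 0.39 without replicate 3. The last was -0.25 without replicate 2 and 0.02 without replicate 3. Pfkm had the smallest adjusted p between 3 and 24 h (-0.20 ± 0.075, edgeR adjusted p = 0.633) and between 3 and 48 h (-0.21 ± 0.0749, edgeR adjusted p = 0.36).

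The other genes of the pathway were described from 3 lists. Of the further hypoxia genes tested, 12 of 35 were called higher and 3 lower from 3 to 24 h, and 14 of 36 higher and 5 lower from 3 to 48 h. The shares of all genes were 20% higher and 20.1% lower for the first step and 24.5% and 24.8% for the second. The rises with the smallest adjusted p at 48 h were Lox (1.06), Plod2 (0.85) and Plod1 (0.70), which cross-link or hydroxylate collagen. Of the further glycolysis genes at 24 h 6 of 23 passed the test upwards and 4 downwards, and at 48 h 5 and 6, near the shares of all genes. The 3 rises with the smallest adjusted p at 24 h were Eno3 (0.85), Pgam2 (1.08), both muscle isoenzymes, and Hk3 (2.22). All 14 muscle markers tested were called higher at that time, and of 11 macrophage markers 8 were called higher and 2 lower. The part of these markers in the 3 rises was not tested. Ldhb, which favours lactate use, Hkdc1 and Slc2a4 were lower (-0.23, -0.92 and -0.30). Of 23 enzymes of pyruvate oxidation and the citric acid cycle 1 was called higher and 6 lower at 24 h, and 3 and 5 at 48 h. List medians at 24 h were 0.18, -0.0014 and -0.05, against -0.01 for all genes. At 48 h they were 0.16, -0.09 and 0.03, again against -0.01.

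With BPS and no block these lists gave 2 calls over the 6 comparisons, both with 50 µM. Of all genes 0.375% were called with 50 µM at 24 h and 1% at 48 h. Wsb1, a ubiquitin ligase subunit, was higher with 50 µM at 24 h (0.25, edgeR adjusted p = 0.0405), and Tfrc, the transferrin receptor, was lower at 48 h (-0.32, edgeR adjusted p = 0.0499). With the replicate block at 24 h, 1 further hypoxia gene was called higher and 5 lower of 35, where 5.75% of all genes were called. At 3 h the block gave 1 further hypoxia gene lower and 1 further glycolysis gene higher, where 1.53% of all genes were called, and 0 without the block. The list medians with 50 µM at 24 h were -0.15 for the further hypoxia genes, -0.11 for the further glycolysis genes and -0.0029 for the mitochondrial enzymes, beside -0.37 for the 36 rows.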

How the data were processed

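RNA of 45 cultured forelimb bud libraries was measured by poly-A RNA-seq, with 5 libraries in each of 9 groups of dose and time. The authors deposited 9 tables of raw read counts per gene, each for 2 groups, and a length in bases for each gene. Per the submitters' processing notes, STAR 2.5, HTSeq 0.6.1, CASAVA 1.8, DESeq2 and the build mm10 were used, with no roles given, and the annotation release is not given in the sources used here. Control counts that stand in more than 1 table (1319925) were identical.

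Each pair of groups was fitted with edgeR 4.0.16 in R 4.3.3 (TMM scaling, filterByExpr, robust quasi-likelihood test, Benjamini-Hochberg over all genes tested), and genes below an adjusted p of 0.05 were called. Interactions were fitted over the 45 libraries and 18432 genes. Levels are CPM (the deposited counts scaled by library size) with TMM factors over all libraries, and spreads use log2(CPM + 1). Library totals of 15.2 to 23.1 M reads set a floor of 3 reads. The fits were tested on simulated data. Alternatives were RLE scaling, library totals, no filter on low counts, DESeq2 1.42.0, the replicate number as a block, 1 fit of all 45 libraries, other pseudocounts, and each library left out in turn. Same-numbered libraries deviated together over all genes, each of the 5 pairs with a correlation over 0.1, for control against 10 µM at 24 h (0.12 to 0.335), 50 µM at 3 h (0.148 to 0.317) and 50 µM at 24 h (0.104 to 0.317). Libraries of unlike number reached 0.215, 0.299 and 0.14 in these comparisons, and 8, 8 and 9 of 10 libraries correlated most with their own number. The labels give the numbers but not what they share. The members, lists and tests were chosen with earlier results of these data known. All members could be named, and of each further pathway list at most the 3 genes with the smallest adjusted p in each direction of a comparison. Of the genes this rule would name, 1 is not reported here.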

Additional observations from a re-analysis of the deposited data

Results flagged for a closer look

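Of 324 combinations of a gene row and a group, 34 had 1 library set apart from the other 4 by a gap past Dixon's 95% critical value. The rows move together by library, so the combinations are not independent and the number of flags was not compared with chance. All genes were not screened in this way. Values are CPM. Replicate 2 of the 50 µM group at 48 h stood above the others for 12 rows, Egln1 (92.7), Ankrd37 (4.29), Ndrg1 (63.9), Adm (3.39), Slc2a1 (133), Slc2a3 (58.5), Gpi1 (324), Pfkfb3 (31.2), Aldoa (555), Tpi1 (315), Pgk1 (261) and Slc16a3 (44.7). All 5 libraries of that group carry the deviating strain labels. Replicate 2 was also the library set apart, again on the high side, with 50 µM at 24 h for 8 rows, Vegfa (159), Ndrg1 (33.1), P4ha1 (158), P4ha2 (76.0), Slc2a1 (98.0), Pfkfb3 (35.5), Ldha (324) and Slc16a3 (43.7). At 3 h it was so for 5 rows, Bnip3 (33.999), Ankrd37 (3.38), Ndrg1 (28.3), Pfkfb3 (28.3) and Slc16a3 (40.5).

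Control replicate 3 at 48 h was set apart on the high side for 4 rows, Vegfa (272), Car9 (6.44), Slc2a3 (79.6) and the second Aldoa row (3.30). In the 10 µM group at 24 h replicate 2 was set apart for Aldoc (8.75). With 10 µM at 3 h, replicate 4 was the highest for Epas1 (29.9) and the lowest for Hk2 (24.2), and replicate 3 was the lowest for Bnip3 (20.0) and P4ha1 (85.7). Causes were not tested.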

How the results depend on the processing

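No called change turned its direction under any alternative. From 24 to 48 h of control culture 1 row was called, and 2 in the fit of all 45 libraries, with 1 to 2 when each library was left out. With 50 µM at 3 h 0 rows were called, and 0 to 2 without each library in turn. With 50 µM at 24 h 1 row was called with no filter on low counts and 1 with DESeq2. With the replicate number as a block, 50 µM gave 1 row at 3 h and 3 at 24 h. The block changed no other call where the numbers pair the libraries. Elsewhere same-numbered libraries share only a number, and with it 8 rows were called from 3 to 24 h, where 37.6% of all genes were, and 15 from 3 to 48 h, where 43.7% were. There it ended the calls of P4ha1 at 24 h and Adm at 48 h (edgeR adjusted p = 0.0895 and 0.0977), and called Epas1 and Vegfa at 48 h (0.0497 and 0.0459). The control calls numbered 6 to 11 from 3 to 24 h and 12 to 20 from 3 to 48 h without each library in turn. The median pooled SD of the 36 rows was 0.332, and 0.290 with a pseudocount of 5 CPM. Over all rows, comparisons and left-out libraries, a called row kept its call in 206 fits and lost it in 34, and a row not called gained one in 28. Over the other settings these counts were 129, 15 and 24. With 5 libraries a group, the intervals of many rows still span a 2-fold change. The causes were not tested.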
